A study of Mus musculus with 4 samples.

Results

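Laminins, nidogens, the proteoglycans perlecan and agrin, dystroglycan and the integrins build basement membranes and anchor cells to them. The 35 genes described here were taken by symbol from a list of these families, and all 35 were found among the 35689 genes of the table. Their RNA was measured in forelimb buds of mouse embryos at stage E11.5, with and without Smarcc1 in limb mesenchyme. Knockout embryos had the genotype PrxCre/+;Smarcc1c/c, which joins a homozygous conditional Smarcc1 allele to PrxCre, a transgene that expresses Cre in early limb mesenchyme. Control embryos had the genotype Prx+/+;Smarcc1c/c, which is the same conditional allele without Cre. The Smarcc1 protein, BAF155, belongs to the core of the BAF complex, which remodels chromatin. The 4 libraries came from 4 embryos, both forelimb buds of an embryo together, and in either genotype replicate 1 had 40 somites and replicate 2 had 39. Values below are given in that order. The buds also contain ectoderm, vessels, blood and migrating muscle precursors, which lie outside the PrxCre domain and also make some of these proteins.

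A laminin is a trimer of an alpha, a beta and a gamma chain. Laminins polymerise on the cell surface, nidogens link this sheet to collagen IV, and perlecan and agrin add heparan sulfate. Dystroglycan and the integrins, which are dimers of an alpha and a beta subunit, are the receptors that connect the sheet to the cytoskeleton. In the limb bud a basement membrane separates the surface ectoderm from the mesenchyme, and others surround the vessels.

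Levels are in TPM (transcript abundance corrected for length and set to a common library total), so levels of different genes can be compared. Between 12555 and 12689 genes reached 1 TPM in a library, and the read depth behind a value is unknown. Smarcc1 stood at 46.2 and 38.4 TPM in knockout buds, against 112.0 and 119.6 TPM in control buds. The 12 limb mesenchyme markers were all tested, and their summed level was 816.7 and 934.7 TPM in knockout buds and 906.7 and 1088.2 TPM in control buds. In limma (Benjamini-Hochberg adjusted p under 0.05) Pdgfra passed higher, and Msx1 and Lhx9 lower, beside 0.812% and 0.492% of all genes tested. The median log2 fold change of the 12 was -0.19. Without overlap between the genotypes 2 lay higher and 7 lower, beside 22.7% and 21.2% of all genes tested. Ddx3y, on the Y chromosome, had 0.0498 and 28.3 TPM in knockout buds and 0.0130 and 30.2 TPM in control buds, so embryo sex coincided with somite stage in both genotypes. Differences between stages therefore cannot be told apart from differences between sexes.

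Lama1, which encodes a laminin alpha chain of early embryonic basement membranes, fell in the knockout buds, and Lamb2, which encodes the beta2 chain, rose. These were the 2 of 28 tested members that passed limma at a Benjamini-Hochberg adjusted p under 0.05, beside 1.3% of the 12809 genes tested. Genes were tested where at least 2 libraries reached 1 TPM, which left 7 members untested. Of the tested members 10 had a log2 fold change above 0 and 18 below 0, with a median of -0.18, beside a median of 0.01 over all genes tested. Without adjustment, 3 members were higher and 5 lower at p under 0.05, beside 6.78% of all genes tested higher and 6.89% lower. The knockout and control libraries did not overlap in 14 of the 28, 5 higher and 9 lower, beside 22.7% and 21.2% of all genes tested, 43.9% together. The members that differed by the most lay among the laminins, nidogens and integrin alpha subunits, while the main beta subunits lay close to 0. A missed threshold does not show that the other 26 were equal in both genotypes. In whole buds, fewer cells of a type and less RNA per cell cannot be told apart.

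**Figure D1:**
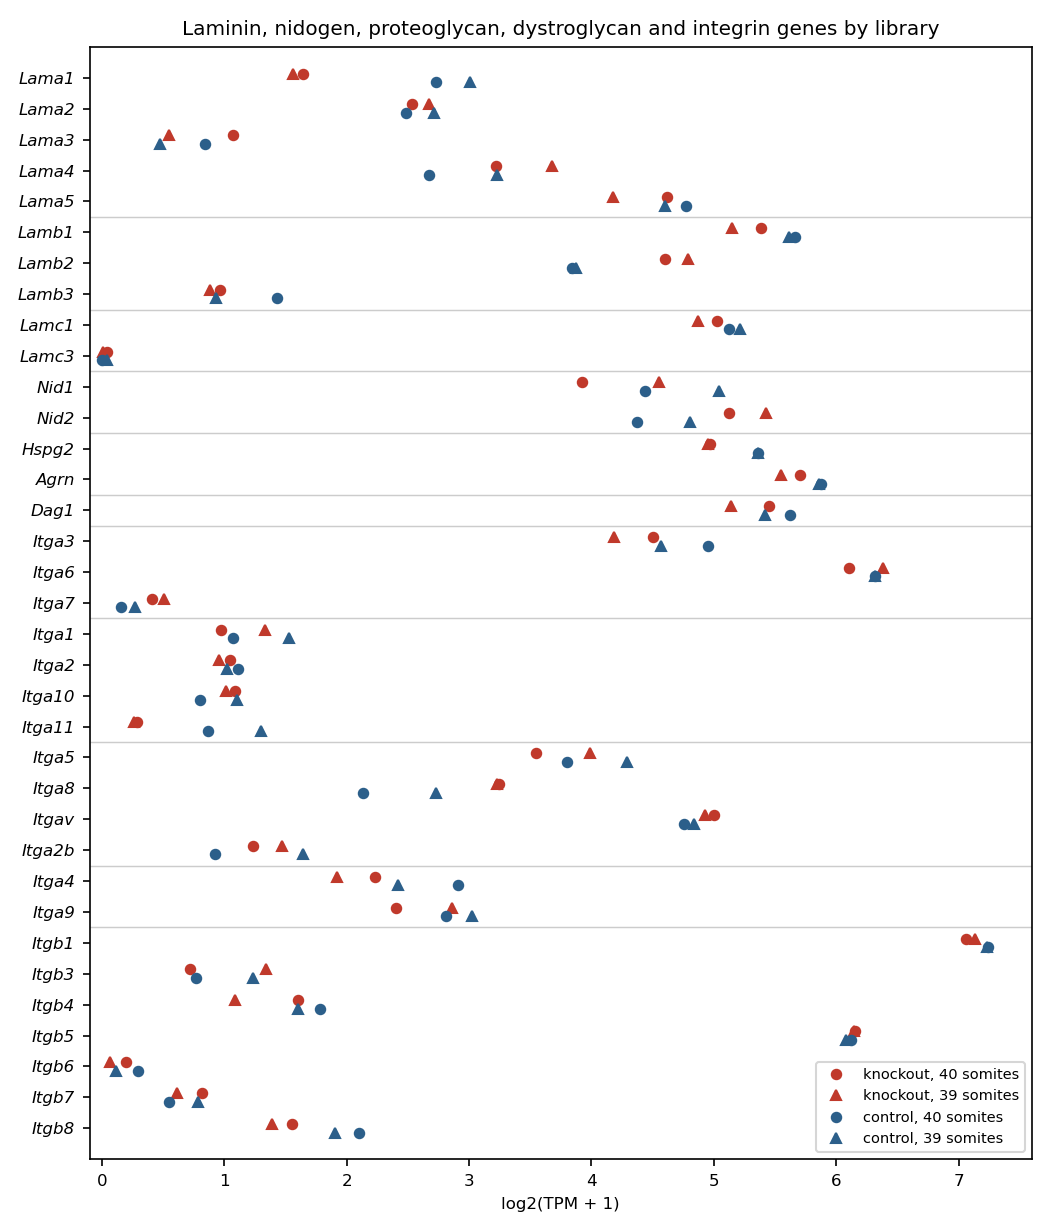
Level of each of the 35 genes in each library as log2(TPM + 1), with knockout points above control points in each row, circles for 40 and triangles for 39 somites, and lines between roles. Lama1 (2.13 and 1.95 TPM in knockout buds, 5.65 and 7.04 TPM in control buds) and Lamb2 (23.3 and 26.7 against 13.3 and 13.7 TPM) show clear gaps between the genotypes.

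**Figure D2:**
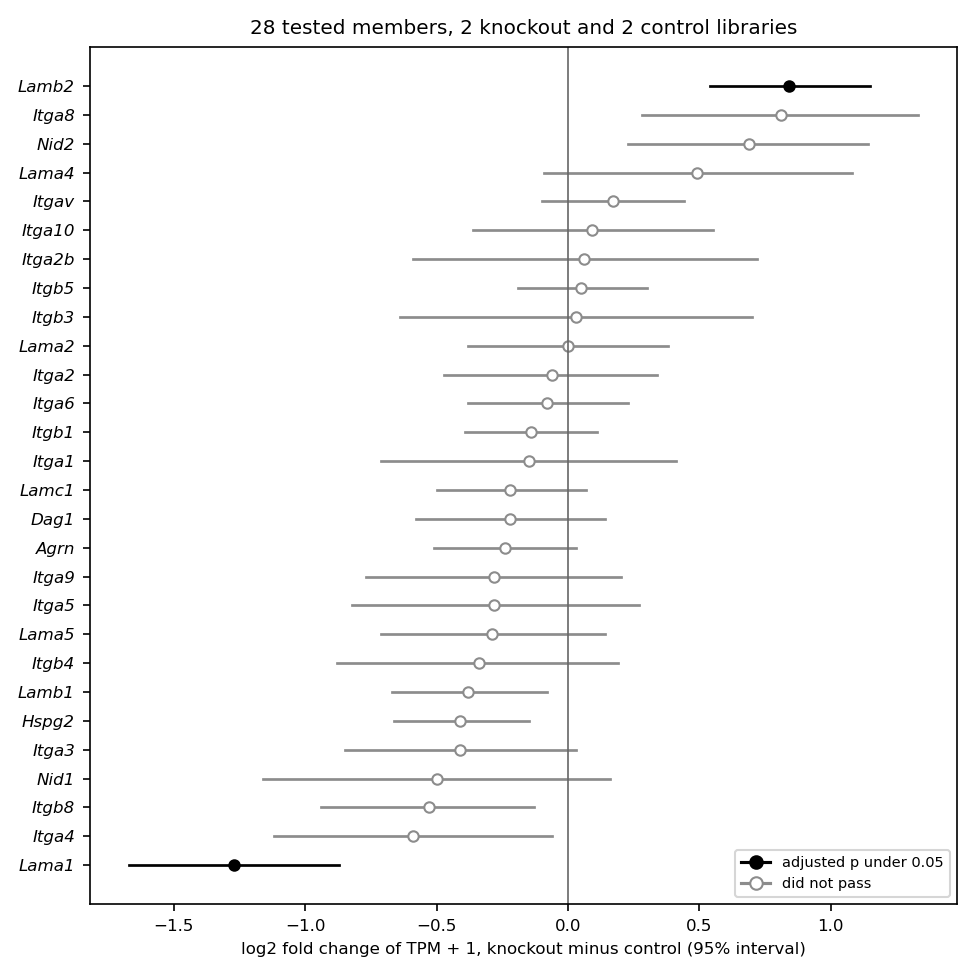
Log2 fold change of TPM + 1, knockout minus control, with its 95% interval from limma, for the 28 tested members in order of size. Filled points passed at an adjusted p under 0.05, and they lie at the ends of the order, Lama1 at -1.27 and Lamb2 at 0.84.

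Among the laminin alpha chains, Lama1 (ENSMUSG00000032796, mm10 chromosome 17, 67697259 to 67822647) had 2.13 and 1.95 TPM in knockout buds, against 5.65 and 7.04 TPM in control buds. Both knockout libraries lay below both controls, and the mean level in knockout buds was 0.321 of that in control buds. Lama1 differed by -1.27 ± 0.16 on the log2 scale (SE, n = 2 per genotype), with a 95% interval from -1.67 to -0.87 and an adjusted p (limma, Benjamini-Hochberg) of 0.0319. The difference was -1.09 between the embryos with 40 somites and -1.45 between those with 39. The call ended without control replicate 1 (limma adjusted p = 0.0706), without control replicate 2 (0.109) and with no filter on low values (0.182).

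Lama5, the most abundant alpha chain in every library and a major chain beneath epithelia, had 23.6 and 17.1 TPM in knockout buds, against 26.4 and 23.3 TPM in control buds. Lama4, an alpha chain of vessel walls, had 8.30 and 11.8 TPM in knockout buds, against 5.39 and 8.37 TPM in control buds. Lama2, the alpha chain of muscle and peripheral nerve, had 4.78 and 5.39 TPM in knockout buds, against 4.61 and 5.55 TPM in control buds. The groups overlapped for each of these 3 genes and none passed, with log2 fold changes of -0.29 ± 0.17, 0.49 ± 0.24 and 0.00 ± 0.16. Lama3, a chain of epidermal laminin, was not tested, at 1.10 and 0.464 TPM in knockout buds and 0.794 and 0.390 TPM in control buds. The order of the alpha chains in knockout buds was Lama5, Lama4, Lama2, Lama1 and Lama3, with no overlap between neighbours. In the controls it was Lama5, Lama4, Lama1, Lama2 and Lama3, where the values of Lama4 overlapped those of Lama1 and of Lama2.

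Among the alpha chains the shares of Lama1 and Lama4 did not overlap between the genotypes, while those of Lama2, Lama3 and Lama5 did. Lama5, the main chain, made up 59.1% and 46.6% in knockout buds, against 61.6% and 52.1% in control buds. Lama1 made up 5.33% and 5.32% of the summed TPM of the 5 alpha chains in knockout buds, against 13.2% and 15.8% in control buds. Lama4 made up 20.8% and 32.1% in knockout buds, against 12.6% and 18.8% in control buds. The summed level of the 5 chains was 39.9 and 36.7 TPM in knockout buds and 42.8 and 44.6 TPM in control buds. Shares of transcripts say nothing of which trimers assemble. They are given as a description, since an exact two-sided permutation p for 2 libraries against 2 is at least 0.333.

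Lamb2 (ENSMUSG00000052911, mm10 chromosome 9, 108479736 to 108490530) encodes a beta chain found in kidney, vessel and neuromuscular basement membranes. It had 23.3 and 26.7 TPM in knockout buds, against 13.3 and 13.7 TPM in control buds, and both knockout libraries lay well above both controls. Lamb2 differed by 0.84 ± 0.13 on the log2 scale (SE, n = 2 per genotype), with a 95% interval from 0.54 to 1.15 and an adjusted p (limma, Benjamini-Hochberg) of 0.0419. It was 0.77 between the embryos with 40 somites and 0.92 between those with 39. The call ended without control replicate 1 (limma adjusted p = 0.122), without control replicate 2 (0.111) and with no filter on low values (0.171).

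Lamb1, the widespread beta chain, had 40.7 and 34.5 TPM in knockout buds, against 49.6 and 48.1 TPM in control buds. It was the most abundant laminin chain in every library, its groups did not overlap, and it did not pass (log2 fold change -0.38 ± 0.12; limma adjusted p = 0.259). Lamb2 thus made up 36.5% and 43.6% of the summed TPM of Lamb1 and Lamb2 in knockout buds, against 21.1% and 22.1% in control buds. The difference in mean share was 18.4 percentage points, and between 14.8 and 22.0 with a library left out. The summed level of the 3 beta chains was 65.0 and 62.0 TPM in knockout buds and 64.5 and 62.7 TPM in control buds, so the groups overlapped in their total. Lamb3, the beta chain of epidermal laminin, was not tested, at 0.953 and 0.843 TPM in knockout buds and 1.69 and 0.909 TPM in control buds.

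The sequences before the RefSeq start sites of these paralogs are shown because Lamb2 passed and Lamb1 did not. They are the 250 bases upstream of the RefSeq start in GRCm38.p6 (mm10), read 5′ to 3′ on the plus strand, with each CG dinucleotide in capitals. The Lamb2 window is chr9:108479612-108479861 and the Lamb1 window is chr12:31265043-31265292. The GENCODE starts of the genes, 108479736 for Lamb2 and 31265234 for Lamb1, lie inside these windows. The last part of each window is thus within the gene in that annotation.
Lamb2: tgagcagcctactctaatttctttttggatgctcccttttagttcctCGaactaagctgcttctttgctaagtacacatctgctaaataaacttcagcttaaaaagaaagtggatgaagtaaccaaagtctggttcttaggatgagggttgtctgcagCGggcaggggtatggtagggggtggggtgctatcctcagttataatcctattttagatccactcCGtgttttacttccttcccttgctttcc
Lamb1: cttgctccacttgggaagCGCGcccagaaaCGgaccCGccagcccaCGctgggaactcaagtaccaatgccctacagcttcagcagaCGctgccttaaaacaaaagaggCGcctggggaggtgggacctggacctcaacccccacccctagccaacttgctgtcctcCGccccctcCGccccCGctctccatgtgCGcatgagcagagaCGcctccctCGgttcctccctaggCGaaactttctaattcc

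The Lamb2 window holds 3 CG dinucleotides and 43.6% G and C, and the Lamb1 window holds 14 and 62%. The median over 32544 promoter windows of this length was 6 CG dinucleotides. Both strands were searched for 4 motifs. The GC box was read as GGGCGG, the CCAAT box by the letters of its name, the TATA box as TATAAA and the AP-1 motif as TGANTCA. The Lamb1 window has 2 GC boxes, starting at -84 and -75 from the RefSeq start site, and 1 CCAAT box that does not overlap them. The Lamb2 window has no match to any of the 4. Of all windows 33% hold a GC box, 33.8% a CCAAT box, 12.3% a TATA box and 6.73% the AP-1 motif. These matches describe the letters only.

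Lamc1, the gamma chain of nearly all laminins in these tissues, had 31.5 and 28.3 TPM in knockout buds, against 33.8 and 36.1 TPM in control buds. The groups did not overlap, and the difference did not pass (log2 fold change -0.22 ± 0.12). Lamc3 was near 0, at 0.0325 and 0.00720 TPM in knockout buds, and it was listed at 0 and at 0.0281 TPM in control buds.

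**Figure D3:**
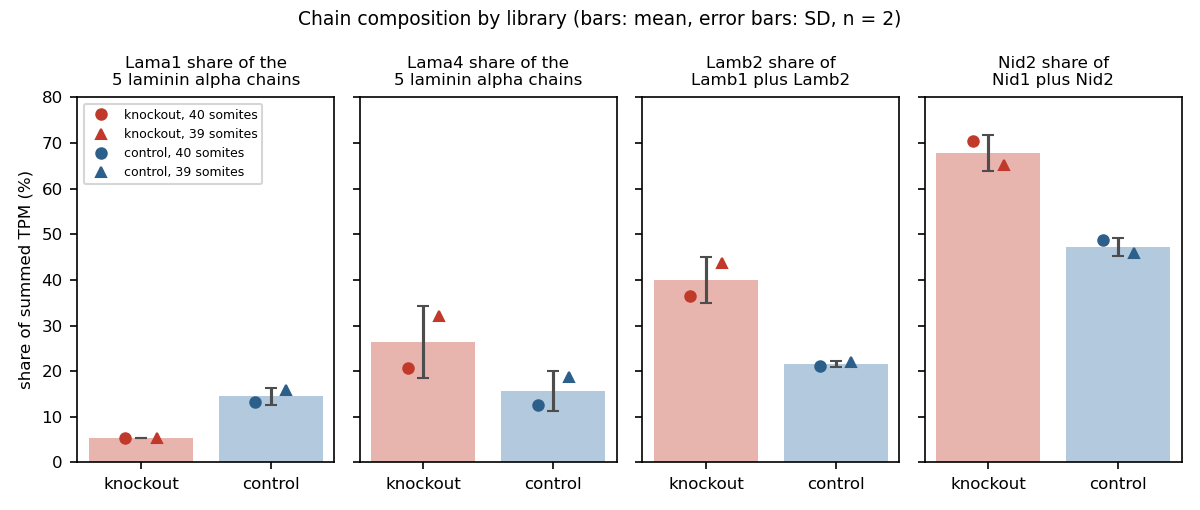
Share of summed TPM in each library for Lama1 and Lama4 among the 5 laminin alpha chains, Lamb2 among Lamb1 and Lamb2, and Nid2 among both nidogens, in percent. Bars are means and error bars the SD of 2 libraries, and the knockout and control points do not overlap in any of the 4 panels. The shares of Lama2, Lama3 and Lama5 among the alpha chains and of Lamc1 among the gamma chains overlapped and are not shown.

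The nidogens had log2 fold changes of opposite sign, and neither passed. Nid2 (ENSMUSG00000021806, mm10 chromosome 14, 19751265 to 19811787) had 33.9 and 42.0 TPM in knockout buds, against 19.7 and 27.0 TPM in control buds. Nid1 (ENSMUSG00000005397, mm10 chromosome 13, 13437551 to 13512269) had 14.2 and 22.5 TPM in knockout buds, against 20.7 and 32.0 TPM in control buds. The groups did not overlap for Nid2 and overlapped for Nid1, and in each genotype both genes were lower in the embryo with 40 somites.

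They were 0.69 ± 0.19 for Nid2 and -0.50 ± 0.27 for Nid1 (SE, n = 2 per genotype; Benjamini-Hochberg adjusted p in limma = 0.185 and 0.506). With somite stage as a block both passed, with adjusted p-values of 0.0263 and 0.0447, in a fit that called 4 of the 28 members, 2 higher and 2 lower, beside 2.08% of all genes higher, 2.08% lower and 4.16% in either direction. Within the stages Nid2 differed by 0.76 at 40 somites and 0.62 at 39, and Nid1 by -0.52 and -0.49. With a library left out, an arm holds 1 library that is assumed to vary like the other arm, and such limma fits called between 50 and 646 genes, against 167. Nid1 was at -0.19 without knockout replicate 1 (adjusted p = 0.936), -0.82 without knockout replicate 2 (0.0119), -0.80 without control replicate 1 (0.365) and -0.20 without control replicate 2 (0.757). Nid2 was at 0.84 without knockout replicate 1 (adjusted p = 0.00593), 0.54 without knockout replicate 2 (0.238), 0.47 without control replicate 1 (0.413) and 0.91 without control replicate 2 (0.125). Nid2 made up 70.5% and 65.1% of the summed nidogen TPM in knockout buds, against 48.7% and 45.8% in control buds, a difference in means of 20.5 percentage points. Of the annotated exonic bases of Nid2 8.4% lie under Rtraf on the opposite strand, whose mean level was 199.9 TPM in knockout buds and 187.2 TPM in control buds, and the strand setting of the quantification is not given in the sources used here.

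Perlecan and agrin lay lower in knockout buds. Hspg2, which encodes perlecan, had 30.3 and 29.9 TPM in knockout buds, against 40.2 and 40.2 TPM in control buds. The replicates nearly coincided within each genotype and the groups did not overlap, but the log2 fold change of -0.41 ± 0.10 did not pass (limma adjusted p = 0.169). Agrn, which encodes agrin, had 51.2 and 45.7 TPM in knockout buds, against 57.6 and 57.0 TPM in control buds (-0.24 ± 0.11; limma adjusted p = 0.428). Dag1, which encodes dystroglycan, the laminin, perlecan and agrin receptor, had 42.7 and 34.3 TPM in knockout buds and 48.2 and 41.7 TPM in control buds, with overlapping groups.

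Of the integrins, the beta1 subunit, partner of most alpha subunits, dominated every library. Itgb1 had 132.7 and 139.7 TPM in knockout buds, against 150.5 and 149.7 TPM in control buds, with a log2 fold change of -0.14 and a 95% interval from -0.39 to 0.11. Itgb5, a partner of the alpha-v subunit, had 70.4 and 69.9 TPM in knockout buds, against 68.5 and 66.6 TPM in control buds, with an interval from -0.19 to 0.30. Together they made up the bulk of the summed TPM of the 7 beta genes, with Itgb1 at 63.6% and 65.1% in knockout buds and 66.6% and 67.1% in control buds.

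The other beta subunits were each under 4 TPM. Itgb8, which pairs with alpha-v in the activation of latent TGF-beta, had 1.93 and 1.62 TPM in knockout buds, against 3.28 and 2.75 TPM in control buds. The groups did not overlap, and the difference did not pass (log2 fold change -0.53 ± 0.17; limma adjusted p = 0.240). Itgb4, the hemidesmosome subunit, had 2.04 and 1.13 TPM in knockout buds and 2.44 and 2.03 TPM in control buds. Itgb3, a subunit of platelets and vessels, had 0.651 and 1.53 TPM in knockout buds and 0.704 and 1.36 TPM in control buds, so that it varied between the stages more than between the genotypes. Itgb6, an epithelial subunit, and Itgb7, a leukocyte subunit, stayed under 1 TPM in every library and were not tested.

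Among the receptors for laminin, Itga6 was the most abundant alpha subunit, at 67.8 and 82.5 TPM in knockout buds and 78.8 and 78.9 TPM in control buds. It made up 44.4% and 49.3% of the summed TPM of the 13 alpha genes in knockout buds, against 46.8% and 45.6% in control buds. Itga3 had 21.7 and 17.2 TPM in knockout buds, against 29.9 and 22.7 TPM in control buds, and did not pass (-0.41 ± 0.18; limma adjusted p = 0.403). Itga7, the laminin receptor of muscle, was not tested, at 0.330 and 0.425 TPM in knockout buds and 0.117 and 0.208 TPM in control buds.

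Among the receptors that bind the RGD sequence of matrix proteins, Itga8 lay furthest from 0. Itga8 (ENSMUSG00000026768, mm10 chromosome 2, 12106632 to 12301922), the partner of beta1 in a receptor for nephronectin, had 8.50 and 8.36 TPM in knockout buds, against 3.39 and 5.62 TPM in control buds. The groups did not overlap, and the difference was 1.11 between the embryos with 40 somites and 0.50 between those with 39. Its log2 fold change of 0.81 ± 0.22 (SE, n = 2 per genotype) did not pass (limma adjusted p = 0.181), nor did it with somite stage as a block (0.0813). With 1 library in an arm, it was at 0.80 without knockout replicate 1 (adjusted p = 0.0428), 0.82 without knockout replicate 2 (0.0430), 0.51 without control replicate 1 (0.354) and 1.10 without control replicate 2 (0.0828). By mean level Itga8 was rank 5 among the alpha subunits in knockout buds and rank 7 in control buds, where its values overlapped those of Itga4, the next higher. Npnt, which encodes nephronectin and is named here after its values were seen, had 13.9 and 8.26 TPM in knockout buds and 16.2 and 13.3 TPM in control buds.

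Itgav had 31.0 and 29.5 TPM in knockout buds, against 26.1 and 27.6 TPM in control buds. Itga5, the fibronectin receptor subunit, had 10.7 and 14.9 TPM in knockout buds and 12.9 and 18.6 TPM in control buds. Itga2b, the platelet subunit, had 1.35 and 1.77 TPM in knockout buds and 0.900 and 2.13 TPM in control buds. None of these passed, with log2 fold changes of 0.17 ± 0.11, -0.28 ± 0.22 and 0.06 ± 0.27.

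The collagen receptor subunits were scarce, with each library at or under 1.89 TPM for all 4 genes. Itga1 and Itga2, broad collagen receptor subunits, and Itga10, a subunit of cartilage, had overlapping groups and log2 fold changes between -0.15 and 0.09. About 33.5% of the exonic bases of Itga10 are shared with Gm42957 on the same strand. The mean level of Gm42957 was 0.0564 TPM in knockout buds and 0.0689 TPM in control buds. Reads of Itga10 may have been divided between these genes, which was not tested. Itga11, a collagen receptor subunit of mesenchymal cells, had 0.222 and 0.200 TPM in knockout buds, against 0.820 and 1.47 TPM in control buds. Both knockout libraries lay below both controls, and the mean level in knockout buds was 0.184 of that in control buds. Only 1 library reached 1 TPM, so the gene was outside the test, and with no filter on low values its log2 fold change was -0.81 ± 0.17 with a limma adjusted p of 0.259 in a fit that called 0 genes.

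Itga4, which binds VCAM1 and fibronectin, had 3.71 and 2.78 TPM in knockout buds, against 6.53 and 4.36 TPM in control buds, with no overlap (-0.59 ± 0.22; limma adjusted p = 0.308). Itga9, a related subunit that binds tenascin, had 4.30 and 6.28 TPM in knockout buds and 6.01 and 7.16 TPM in control buds. The macrophage markers summed to 24.4 and 22.2 TPM in knockout buds and 26.4 and 35.1 TPM in control buds, with 7 of the 8 tested below 0 and Ptprc and Fcgr1 under 1 TPM in every library. Their part in the value of Itga4 was not tested.

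The same comparison made within each somite stage has 1 library per genotype and no test. The difference had the same sign at both stages in 23 of the 28 tested members, beside 69.2% of all genes tested. Lama1, Lamb2, Nid2, Lama4, Nid1, Itgb8 and Hspg2 differed by 0.40 or more, to 2 decimals, in the same direction at both stages, and so did Itga4 and Itga8. Between stages, 11 members were higher in the embryo with 39 somites in both genotypes and 11 were lower, while of the 12809 genes tested 6866 were higher and 1992 lower. Nid1 was higher there by 0.63 in knockout buds and 0.60 in control buds, Itga5 by 0.44 and 0.50, and Lama4 by 0.46 and 0.55. Itga3 was lower there by 0.32 in knockout buds and 0.39 in control buds.

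**Figure D4:**
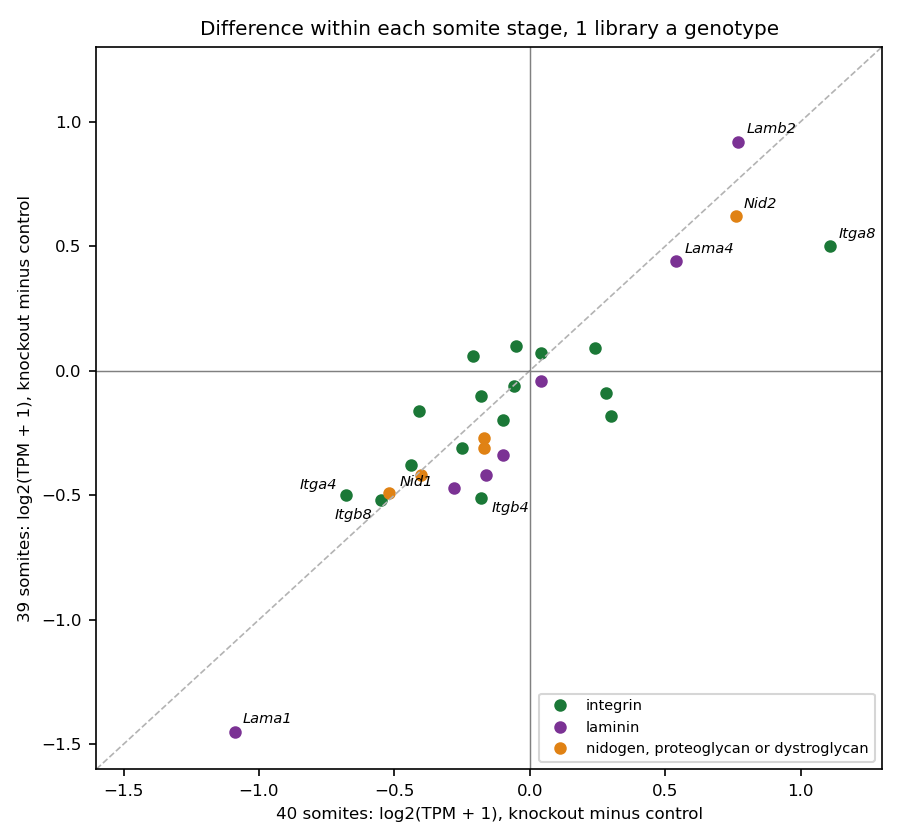
Difference in log2(TPM + 1), knockout minus control, at 40 somites (horizontal) and 39 somites (vertical) for the 28 tested members, with 1 library per genotype at each stage and a dashed line of equal values. Lama1 lies at the lower left (-1.09 and -1.45) and Lamb2 (0.77 and 0.92), Nid2 and Itga8 at the upper right.

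Markers of other cells were read beside these values. All 13 surface ectoderm markers had log2 fold changes below 0, from -0.82 to -0.09 with a median of -0.42, and 0 passed in limma. At an unadjusted p under 0.05 in limma 4 were lower, beside 6.89% of all genes tested. With somite stage as a block 3 of the 13 passed, all lower, beside 2.08% of all genes tested. They were Cldn6 (limma adjusted p = 0.0230), Perp (0.0251) and Grhl3 (0.0496). The summed level of the 13 markers was 503.9 and 319.1 TPM in knockout buds and 645.0 and 422.9 TPM in control buds. It was thus lower at 39 somites in both genotypes and lower in the knockout at each stage. The log2 fold change of Lama1, at -1.27, lay below that of every ectoderm marker. The markers' range is wide, and most other members below 0 lay within it, which does not tell where their RNA came from. Among them were Lama5, Itga3 and Itgb4, and also Nid1 (-0.50), Itga4 (-0.59) and Hspg2 (-0.41). At 39 somites 12 of the 13 markers were lower in both genotypes, and so were Lama5, Itga3, Itgb4 and Itga4. Hspg2 hardly differed between the stages, and Nid1 was higher at 39 somites by 0.63 in knockout buds and 0.60 in control buds. The part of the ectoderm in the values of these members was not tested.

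The 12 endothelial markers had log2 fold changes from -0.04 to 0.43 with a median of 0.07. No marker separated the genotypes, beside 43.9% of all genes tested. The difference had the same sign at both stages in 4 of the 12, beside 69.2% of all genes tested. The summed level of the 12 markers was 108.3 and 153.9 TPM in knockout buds and 88.2 and 158.8 TPM in control buds. All 12 were higher at 39 somites in both genotypes. So were 11 of the 28 tested members, Nid1, Lama4 and Itga5 among them, and 6866 of the 12809 genes tested. The 10 pericyte and smooth muscle markers summed to 50.3 and 51.3 TPM in knockout buds and 56.9 and 59.5 TPM in control buds, with Myh11, Cnn1, Kcnj8 and Abcc9 under 1 TPM in every library. The 10 myoblast markers summed to 66.6 and 74.8 TPM in knockout buds and 46.2 and 37.0 TPM in control buds, with Pax7 and Des under 1 TPM. The part of these cells in the values of Lamb2, Nid2 and Lama4 was not tested. The megakaryocyte and platelet markers, among them Itga2b itself, summed to 31.6 and 38.7 TPM in knockout buds and 31.8 and 35.3 TPM in control buds.

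Of 25 other genes of basement membranes and integrin ligands, 19 were tested and 0 passed in limma, with a median of -0.15. Before adjustment (limma p under 0.05) 1 was higher and 2 lower, beside 6.78% and 6.89% of all genes tested. Thbs1, which encodes the matrix glycoprotein thrombospondin 1, had 31.0 and 28.5 TPM in knockout buds, against 23.3 and 17.8 TPM in control buds. Fbln2, which encodes fibulin 2, had 22.8 and 26.9 TPM in knockout buds, against 32.0 and 34.1 TPM in control buds. Col18a1, the collagen of basement membranes that carries endostatin, had 83.7 and 78.0 TPM in knockout buds, against 108.7 and 94.8 TPM in control buds. The groups did not overlap for any of these 3, which were named for their small p-values. Of the 19 tested genes 4 lay higher and 6 lower without overlap, beside 22.7% and 21.2% of all genes tested.

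Of 27 adaptors and signalling genes of integrin adhesion, 25 were tested and 0 passed, with a median of -0.12. Before adjustment (limma p under 0.05) 0 were higher and 3 lower, beside 6.78% and 6.89% of all genes tested. Parvb, which encodes the adaptor beta-parvin, had 2.48 and 3.71 TPM in knockout buds, against 4.90 and 8.50 TPM in control buds (log2 fold change -0.89 ± 0.27). With somite stage as a block Parvb passed (limma adjusted p = 0.0385), as 1 of the 25, beside 2.08% of all genes tested called lower in that fit. Tln2, a talin that links integrins to actin, had 12.1 and 11.1 TPM in knockout buds, against 17.2 and 16.6 TPM in control buds. Tns2, a tensin, had 2.76 and 3.38 TPM in knockout buds, against 3.99 and 6.71 TPM in control buds. Each of the 3, named for their small p-values, lay lower in both knockout libraries than in both controls. Of the 25 tested genes 0 lay higher and 9 lower without overlap, beside 22.7% and 21.2% of all genes tested.

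Of 22 genes that glycosylate dystroglycan or join it to dystrophin, 20 were tested and 0 passed, with a median of 0.04. Before adjustment (limma p under 0.05) 2 were higher and 0 lower, beside 6.78% and 6.89% of all genes tested. Dmd, which encodes dystrophin, had 18.0 and 22.2 TPM in knockout buds, against 10.1 and 11.1 TPM in control buds (log2 fold change 0.86 ± 0.15; limma adjusted p = 0.0646). Sgcb, which encodes beta-sarcoglycan of the same complex, had 14.0 and 14.9 TPM in knockout buds, against 8.12 and 9.91 TPM in control buds (0.63 ± 0.14; limma adjusted p = 0.127). Both passed with somite stage as a block (limma adjusted p = 0.0228 and 0.0455), where 2.08% of all genes tested were called higher. Pomt2, a mannosyltransferase that starts the sugar chain of dystroglycan, had 11.8 and 13.0 TPM in knockout buds and 9.05 and 10.5 TPM in control buds. Dag1 itself, given above, lay on the other side of 0.

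**Figure D5:**
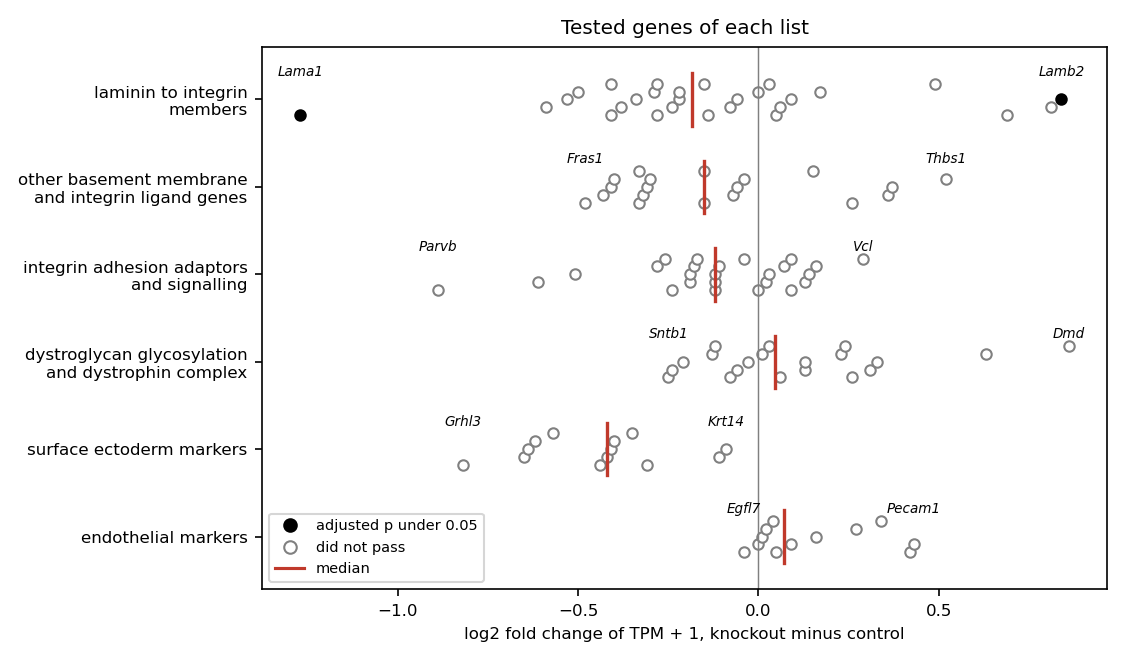
Log2 fold change of TPM + 1, knockout minus control, of the tested genes in each list, with filled points at an adjusted p under 0.05, red lines at the medians, and the lowest and highest gene named. The 13 surface ectoderm markers all lie below 0, while the members reach from Lama1 at -1.27 to Lamb2 at 0.84.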

How the data were processed

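The deposited values are TPM for 35727 Ensembl identifiers in 4 libraries, and every library adds up to 1000000. Salmon 1.9.0 and mm10 appear in the submitters' processing notes. Which transcripts were quantified, and how they were joined into genes, is not given in the sources used here. Each library was found by its title, with 1 extra letter in 1 column name. TPM keeps no depth, so no count test or counting interval was used.

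Identifiers were matched to symbols for 35422 (99.1%), and 38 repeated symbols were summed, none of them a member. Positions are from GENCODE M21 and promoter windows from RefSeq, where 25 members matched. Genes with at least 1 TPM in at least 2 libraries entered limma 3.58.1 (R 4.3.3; variance trend, no covariate) on the log2(TPM + 1) scale, and p-values were adjusted by Benjamini-Hochberg over all 12809. Fold changes on this scale understate changes of low genes. The test was first tested on simulated data, with 200 changed genes in each of 20 runs. The members, lists and tests were chosen with earlier results of these data known. Besides all members, up to 3 genes with the smallest p-values are named in each list.

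Alternatives were pseudocounts of 0.1 and 5, no filter or a filter at 5 TPM, median-ratio and quantile scaling, somite stage as a replicate block, no trend, a robust variance, each library left out and a threshold of 0.1. The labels give the stage, and deviations from the genotype means of same-stage libraries had a Pearson correlation of 0.25 and a Spearman correlation of 0.364 across genes, which are no independent replicates. Changes in chain shares with a library left out were added after the data had been seen. The result for 1 marker gene is not reported here.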

Additional observations from a re-analysis of the deposited data

How the results depend on the processing

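With 2 embryos per genotype there are 2 residual degrees of freedom, and the depth is unknown. Lama1 and Lamb2 kept their direction under all 13 alternatives, with log2 fold changes from -1.58 to -0.69 and from 0.70 to 0.94, and passed under 10 of them. The number of members passing was 0 with no filter on low values in limma (9 at an unadjusted p under 0.05), 4 with the somite stage as a replicate block, and between 0 and 4 with a library left out, where the lone library of an arm is assumed to vary like the other arm. It was 0 without control replicate 1 or 2 (6 and 10 at an unadjusted p under 0.05). The number of genes passing was 0 with no filter in limma (2338 at an unadjusted p under 0.05), 533 with the replicate block, 275 with a robust variance, 316 at a threshold of 0.1, and between 50 and 646 with a library left out, against 167. The causes were not tested. The block left every log2 fold change as it was.

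Direction turned only for members near 0. Lama2 was at -0.0027 under median-ratio scaling and between -0.11 and 0.12 with a library left out. With a library left out Itga6 ran from -0.21 to 0.06, Itga1 from -0.38 to 0.08, Itga10 from -0.06 to 0.24, Itga2b from -0.30 to 0.42 and Itgb3 from -0.28 to 0.34. The median over all genes dropped by 0.008 under median-ratio scaling and by 0.011 under quantile normalization.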
